A study of Mus musculus with 9 samples.

Results

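The 10 genes described here encode receptors and core components of autophagy: the receptors Sqstm1, Nbr1 and Optn, the ATG8 family genes Map1lc3a, Map1lc3b, Gabarapl1 and Gabarapl2, and the initiation genes Ulk1, Becn1 and Wipi1. They are a named set of pathway genes, and each Ensembl gene ID was matched to its symbol. They are 10 of the 55416 genes in the deposited count tables, and all 10 passed the filter on low counts. RNA was sequenced from 4T1 cells, an established mouse mammary carcinoma line of BALB/c origin, in 9 libraries. The MRC+L group (3 libraries) was incubated with MRC nanoparticles for 12 h and lit with a 660 nm laser for 3 min. The MRC group (3 libraries) had MRC nanoparticles for 12 h with no laser, and the PBS group (3 libraries) was labelled untreated and had fresh medium. No group with light and no nanoparticles was analysed here. The labels do not spell out what MRC is made of, nor whether the libraries of a group came from separate cultures, so p-values measure the spread between these libraries, which may be technical.

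Macroautophagy encloses cytoplasm in a double membrane, the autophagosome, and delivers it to the lysosome. The ULK1 kinase complex starts the process, the VPS34 lipid kinase complex with Beclin 1 (Becn1) makes phosphatidylinositol 3-phosphate, and WIPI proteins (Wipi1) bind that lipid. Proteins of the ATG8 family, in the LC3 and GABARAP branches, are then joined to a membrane lipid, and receptors such as p62 (Sqstm1), NBR1 and optineurin (Optn) link ubiquitin-tagged cargo to them. The p62 protein is itself degraded by autophagy, and its gene is a known target of stress-responsive transcription factors. The RNA levels given here do not measure autophagic flux, which acts on proteins.

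The promoters of the 3 members with higher RNA in both nanoparticle groups (Sqstm1, Gabarapl1, Optn) and of the member with lower RNA in both (Wipi1) are shown because the results turn on these genes. Each window runs from 250 bases before to 50 bases after the annotated start, 5′ to 3′ on the strand of the gene, and comes from RefSeq on GRCm38.p6, whereas the count tables use GRCm39. Capitals mark a GC box (GGGCGG, either strand) or a TATA box (TATAAA).
Sqstm1, chr11:50210771-50211070, minus strand: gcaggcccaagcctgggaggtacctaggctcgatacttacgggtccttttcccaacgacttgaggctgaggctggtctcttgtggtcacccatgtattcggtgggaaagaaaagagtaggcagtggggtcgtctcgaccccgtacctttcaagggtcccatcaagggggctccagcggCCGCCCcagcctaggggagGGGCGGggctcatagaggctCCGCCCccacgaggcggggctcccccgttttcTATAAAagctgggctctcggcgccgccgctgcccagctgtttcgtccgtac
Gabarapl1, chr6:129532942-129533241, plus strand: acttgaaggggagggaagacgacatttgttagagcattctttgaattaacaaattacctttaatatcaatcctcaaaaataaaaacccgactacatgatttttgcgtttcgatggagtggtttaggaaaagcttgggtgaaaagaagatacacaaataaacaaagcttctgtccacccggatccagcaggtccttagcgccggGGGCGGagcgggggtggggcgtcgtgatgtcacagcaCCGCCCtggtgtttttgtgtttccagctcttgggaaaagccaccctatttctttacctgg
Optn, chr2:5064068-5064367, minus strand: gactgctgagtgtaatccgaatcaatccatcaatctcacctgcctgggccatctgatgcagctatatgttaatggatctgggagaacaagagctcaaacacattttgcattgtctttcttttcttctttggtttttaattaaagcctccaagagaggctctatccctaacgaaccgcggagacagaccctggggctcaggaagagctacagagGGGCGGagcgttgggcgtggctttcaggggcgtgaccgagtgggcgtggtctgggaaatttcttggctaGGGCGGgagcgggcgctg
Wipi1, chr11:109611340-109611639, minus strand: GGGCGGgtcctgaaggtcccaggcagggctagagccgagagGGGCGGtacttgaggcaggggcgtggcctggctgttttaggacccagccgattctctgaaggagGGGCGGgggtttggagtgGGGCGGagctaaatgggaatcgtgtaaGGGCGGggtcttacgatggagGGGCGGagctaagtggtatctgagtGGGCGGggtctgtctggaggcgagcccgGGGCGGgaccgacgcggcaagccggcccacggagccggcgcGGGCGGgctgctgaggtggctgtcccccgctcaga

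The promoter table held 9 windows for 8 of the 10 members, with 2 for Nbr1, and Map1lc3a and Becn1 were named only. A GC box was found in a window of each of these 8 members, against 35.7% of all 32851 promoters of the table. The second Nbr1 window had no match. The share of 35.7% counts windows rather than genes, and it is not limited to genes tested here. Wipi1 had 9 matches, Ulk1 had 5 and Sqstm1 had 3, while Optn, Gabarapl1 and Gabarapl2 had 2 each and Map1lc3b and Nbr1 had 1 each. The TATA box letters, present in 13.6% of all promoters, were found among the members in the Sqstm1 window alone. That match runs from base -1 to base 5, across the annotated start itself. These 2 motifs were added after the sequences had been seen. Of 6 further motifs searched on both strands, a single match was found: the antioxidant response element (TGACNNNGC, 12.4% of all promoters) in the Map1lc3b window. The others were the E-box CACGTG (7.15% of all promoters), the longer CLEAR motif of lysosomal genes that contains it (0.326%), the cAMP response element TGACGTCA (1.79%), the C/EBP-ATF element TTGCATCA (0.895%) and the endoplasmic reticulum stress element (0.119%). A match is a description of these letters only, and a missing match says nothing about sites outside the window.

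Library totals lay between 15019765 and 20044166 counts, with 18999 to 20514 genes detected in each, and 3 counts, the upper limit when none is seen, equal 0.150 to 0.200 CPM. Values below are CPM, a gene's counts relative to its library's total, scaled by TMM factors unless a length is named. The biological coefficient of variation was 0.0578 in MRC+L, 0.0806 in MRC and 0.280 in PBS, so the spread between libraries was largest in PBS. PBS replicate 2 stood apart when the log2 CPM of each gene was centred on its mean over the 9 libraries. On that centred scale the shortest genes lay above the longest by 0.92 in this library, against -0.25 to 0.08 in the other 8. Values without PBS replicate 2 are therefore given for several genes, and those of other genes can move as well. Of 8 epithelial markers, 4 (Cdh1, Krt7, Krt8, Krt18) reached 1 CPM in all 9 libraries, and their list summed to 561 to 573 CPM in MRC+L, 635 to 668 in MRC and 1056 to 1878 in PBS. Of 8 leukocyte markers none reached 1 CPM in all 9, Cd3e and Adgre1 had no count, and the sums were 1.13 to 1.87 CPM in MRC+L, 0.524 to 1.08 in MRC and 0.187 to 0.765 in PBS. Of 8 fibroblast or endothelial markers, 3 (Pdgfra, Pdgfrb, Cdh5) reached 1 CPM in all 9, and the sums were 75.8 to 87.2 CPM in MRC+L, 79.9 to 96.3 in MRC and 45.5 to 81.8 in PBS. The part of these marker differences in the results was not tested. In bulk RNA, fewer cells of a kind and less RNA per cell cannot be told apart.

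Against PBS, both nanoparticle groups had more RNA of Sqstm1, Optn and Gabarapl1 and less of Wipi1, while Nbr1 was called higher in MRC+L only. The other ATG8 and initiation genes among the members were not called. In MRC+L against PBS, edgeR called 4 of the 10 members higher (Sqstm1, Gabarapl1, Optn, Nbr1) and 1 lower (Wipi1), beside 21.8% of all 13439 tested genes higher, 24.5% lower and 46.2% in either direction. In MRC against PBS it called 3 higher (Sqstm1, Gabarapl1, Optn) and 1 lower (Wipi1), beside 17.8% higher, 19.8% lower and 37.6% in either direction. The shares of members called were near these backgrounds, so the counts alone do not set the members apart, and the size of single changes is given below. The median log2 fold change of the members was 0.04 in MRC+L against PBS and -0.04 in MRC against PBS, and that of all tested genes was -0.03 in both. Both comparisons share the PBS libraries. The CPM ranges of the 2 groups did not overlap for 5 members in each, beside 56.3% of all tested genes in MRC+L against PBS and 48.3% in MRC against PBS. limma-voom with sample weights, which called 73.3% and 65.9% of all genes, called 8 and 7 of the members, and without PBS replicate 2 edgeR called 55.7% and 50.6% of all genes and 6 and 4 of the members.

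**Figure D1:**
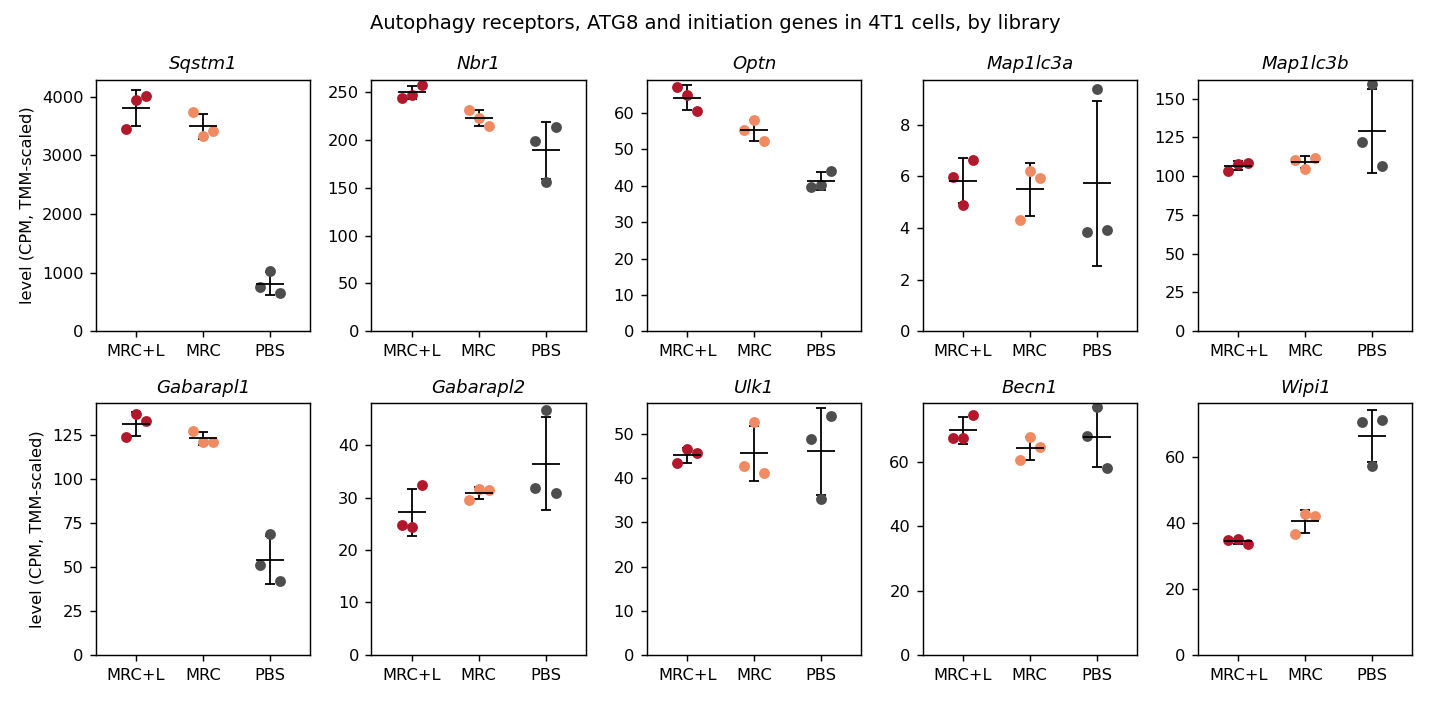
TMM-scaled CPM (vertical axes, 1 scale per gene) of the 10 members, with points for the 3 libraries of MRC+L, MRC and PBS and bars for the mean ± SD. Sqstm1 lies between 3338 and 4016 CPM in the 6 nanoparticle libraries and between 654 and 1029 in PBS, while Wipi1 is lowest in MRC+L.

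Sqstm1 (GRCm39 chromosome 11, 50090193 to 50101654, minus strand), which encodes the ubiquitin-binding receptor p62, was the most abundant member per exon length. It had 3449, 3955 and 4016 CPM in MRC+L, 3736, 3338 and 3414 CPM in MRC, and 747, 1029 and 654 CPM in PBS. Every nanoparticle library exceeded every PBS library, and the MRC+L and MRC ranges overlapped. Sqstm1 was 4.70-fold higher in MRC+L than in PBS (log2 2.23 ± 0.17 SE, edgeR adjusted p = 8.20e-06) and 4.32-fold higher in MRC than in PBS (2.11 ± 0.17, edgeR adjusted p = 1.59e-05). Without PBS replicate 2 these differences were 5.43-fold and 4.97-fold. Between MRC+L and MRC the log2 difference was 0.13 ± 0.07 (95% interval -0.02 to 0.27, edgeR adjusted p = 0.305). Its exons share 580 of 3356 bases with Mrnip on the opposite strand, a gene with 776 counts over the 9 libraries against 418268 for Sqstm1.

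Optn (chromosome 2, 5025453 to 5068862, minus strand) encodes optineurin, a receptor for ubiquitin-coated bacteria and damaged mitochondria. It had 67.3, 65.0 and 60.5 CPM in MRC+L, 55.3, 58.1 and 52.4 CPM in MRC, and 39.7, 40.2 and 44.2 CPM in PBS. The 3 groups did not overlap in any pair, with MRC+L highest and PBS lowest. Optn was 1.55-fold higher in MRC+L than in PBS (log2 0.64 ± 0.10 SE, edgeR adjusted p = 0.000588) and 1.34-fold higher in MRC than in PBS (0.42 ± 0.10, edgeR adjusted p = 0.00763). The step between MRC+L and MRC was 0.22 ± 0.07 (95% interval 0.07 to 0.38) and missed the threshold (edgeR adjusted p = 0.0849). It passed without MRC replicate 2, at an edgeR adjusted p of 0.0404.

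Nbr1 (chromosome 11, 101442975 to 101472777, plus strand) encodes a receptor that binds ubiquitin and ATG8 proteins and acts with p62. It had 244, 247 and 258 CPM in MRC+L, 231, 223 and 214 CPM in MRC, and 198, 156 and 213 CPM in PBS. Again no pair of groups overlapped, though the lowest MRC and the highest PBS library were close. Nbr1 was 1.32-fold higher in MRC+L than in PBS (log2 0.40 ± 0.12 SE, edgeR adjusted p = 0.0224). It no longer passed when MRC+L replicate 1, 2 or 3 was left out (edgeR adjusted p = 0.0535, 0.0601 and 0.0710). For MRC against PBS the log2 difference was 0.24 ± 0.12 (95% interval -0.04 to 0.51, edgeR adjusted p = 0.154), with an adjusted p of 0.0478 without PBS replicate 3. Without PBS replicate 2 the log2 differences were smaller, at 0.28 in MRC+L and 0.11 in MRC against PBS, with edgeR adjusted p-values of 0.00606 and 0.273. The log2 difference between MRC+L and MRC was 0.17 ± 0.06 (95% interval 0.04 to 0.29, edgeR adjusted p = 0.112).

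Among the ATG8 genes, Gabarapl1 was the single one called, and the others differed from PBS by less than the test could call. Gabarapl1 (chromosome 6, 129510123 to 129519309, plus strand), a GABARAP-branch ATG8, had 124, 137 and 133 CPM in MRC+L, 127, 121 and 121 CPM in MRC, and 51.1, 68.5 and 42.1 CPM in PBS. All 6 nanoparticle libraries exceeded all 3 PBS libraries. It was 2.43-fold higher in MRC+L than in PBS (log2 1.28 ± 0.16 SE, edgeR adjusted p = 0.000146) and 2.28-fold higher in MRC than in PBS (1.19 ± 0.16, edgeR adjusted p = 0.000297). Without PBS replicate 2 these differences were 2.81-fold and 2.63-fold. Between MRC+L and MRC its log2 difference was 0.09 ± 0.06 (edgeR adjusted p = 0.420). Its exons share 570 of 2013 bases with the non-coding gene 1700101I11Rik on the opposite strand, which had 21 counts in all 9 libraries against 15929 for Gabarapl1.

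Gabarapl2 (chromosome 8, 112667335 to 112680244, plus strand), the other GABARAP-branch member of the set, had 24.8, 24.3 and 32.4 CPM in MRC+L, 29.5, 31.6 and 31.5 CPM in MRC, and 31.9, 46.8 and 30.8 CPM in PBS. PBS replicate 2 was the highest library and the groups overlapped. The log2 difference was -0.42 ± 0.18 in MRC+L against PBS (95% interval -0.82 to -0.03, edgeR adjusted p = 0.0735) and -0.24 ± 0.18 in MRC against PBS (edgeR adjusted p = 0.310). For MRC+L against PBS the adjusted p was 0.0273 without PBS replicate 3 and 0.0485 without MRC+L replicate 3. Without PBS replicate 2 the difference was -0.21 (edgeR adjusted p = 0.146).

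Map1lc3b (chromosome 8, 122317100 to 122325499, plus strand) encodes LC3B, the usual protein marker of autophagosomes. It had 103, 108 and 109 CPM in MRC+L, 111, 105 and 112 CPM in MRC, and 122, 159 and 107 CPM in PBS. The nanoparticle libraries lay close together and overlapped the lowest PBS library. The log2 difference from PBS was -0.28 ± 0.14 in MRC+L (95% interval -0.58 to 0.03, edgeR adjusted p = 0.125) and -0.25 ± 0.14 in MRC (95% interval -0.55 to 0.06, edgeR adjusted p = 0.187). Without PBS replicate 2 these were -0.10 and -0.07, with edgeR adjusted p-values of 0.319 and 0.478. Without PBS replicate 3 both were called lower. The opposite-strand gene Zcchc14 shares 58 exon bases with it.

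Map1lc3a (chromosome 2, 155118217 to 155119993, plus strand), which encodes LC3A, was the least abundant member per exon length. It had 5.996, 4.89 and 6.63 CPM in MRC+L, 4.31, 6.23 and 5.95 CPM in MRC, and 3.87, 9.41 and 3.92 CPM in PBS. PBS replicate 2 stood above all other libraries and the other 2 PBS libraries below them. The log2 difference from PBS was 0.03 ± 0.34 in MRC+L (95% interval -0.72 to 0.78, edgeR adjusted p = 0.951) and -0.06 ± 0.34 in MRC (-0.81 to 0.69, edgeR adjusted p = 0.913). Without PBS replicate 2 they were 0.59 and 0.50, with edgeR adjusted p-values of 0.0297 and 0.0682, so 1 library decides whether Map1lc3a is called in MRC+L.

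**Figure D2:**
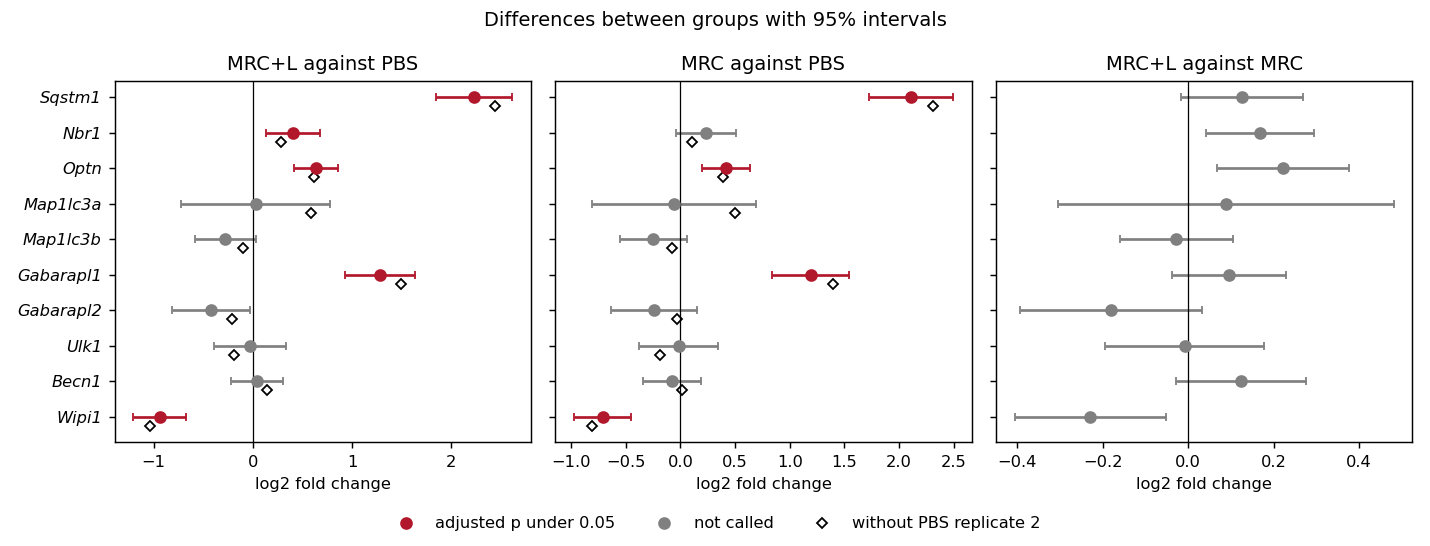
Log2 fold changes (horizontal axes, with a scale of its own in each panel) of the 10 members in MRC+L against PBS, MRC against PBS and MRC+L against MRC, with 95% intervals (red where called). Open diamonds show the value without PBS replicate 2. Sqstm1 lies farthest above 0 in both comparisons with PBS, at 2.23 and 2.11, and Wipi1 farthest below, at -0.94 and -0.71, while no member is called in MRC+L against MRC.

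ATG8 proteins come from several genes, so the RNA levels of these genes were also set beside each other per kilobase of exon, with Gabarap, the remaining ATG8 gene of the mouse counted here, included. Gabarap itself had 104, 96.5 and 109 CPM in MRC+L, 116, 98.5 and 112 CPM in MRC, and 100.4, 188 and 81.0 CPM in PBS, and it was not called in either comparison with PBS (edgeR adjusted p = 0.431 and 0.614). Without PBS replicate 2 it was called higher in MRC (log2 0.26, edgeR adjusted p = 0.0369) and not in MRC+L (0.18, edgeR adjusted p = 0.123). The 5 genes summed to 147, 149 and 159 CPM per kb in MRC+L, 157, 146 and 154 in MRC, and 113, 185 and 95.6 in PBS. The sums of the nanoparticle groups lay inside the PBS range, which PBS replicate 2 widened, and no p-value is given for a sum. Without that library all 6 nanoparticle sums exceeded the other 2 PBS sums, and the log2 ratio of the mean sums was 0.54 in MRC+L and 0.55 in MRC against PBS, in place of 0.21 and 0.22.

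Gabarapl1 made up 41.7, 45.6 and 41.5% of that summed level in MRC+L and 40.2, 41.1 and 38.9% in MRC, against 22.5, 18.3 and 21.9% in PBS. Every nanoparticle library had a higher share than every PBS library, and PBS replicate 2 had the lowest of all. With the shared exon bases of each gene left out of its length, the Gabarapl1 share was 49.9, 53.8 and 49.7% in MRC+L and 48.4, 49.3 and 47.0% in MRC, against 28.7, 23.8 and 28.1% in PBS, so its size depends on the length used while the groups stayed apart. Gabarap held 36.8% ± 1.65 (SD, n = 3) in MRC+L, 38.7% ± 1.89 in MRC and 49.7% ± 4.79 in PBS. Map1lc3b held 9.35% ± 0.269 in MRC+L, 9.50% ± 0.135 in MRC and 13.5% ± 1.85 in PBS, and Gabarapl2 held 7.67% ± 0.952, 8.71% ± 0.609 and 12.3% ± 1.51 in the same groups. Map1lc3a held 3.25% in MRC+L, 3.06% in MRC and 3.55% in PBS. Shares of 1 sum move against each other, so a higher share of one gene lowers those of the rest. Each share also depends on the annotated exon length, which is 7517 bases for Map1lc3b and 1844 for Gabarap.

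**Figure D3:**
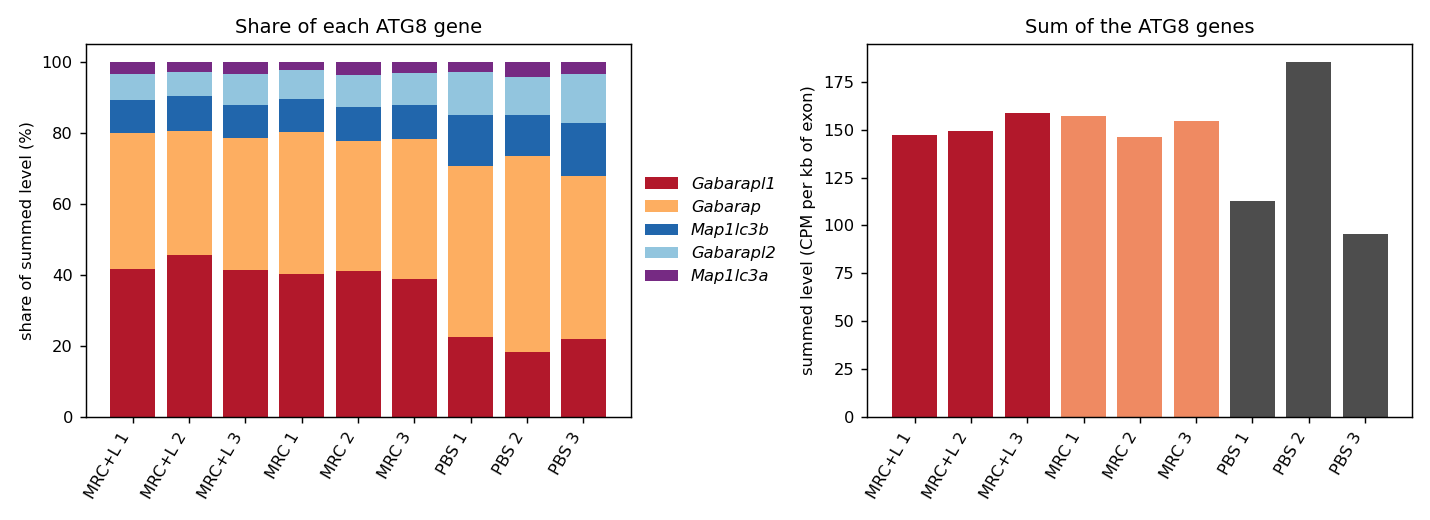
Share of each of the 5 ATG8 genes in their summed level (left, %) and that sum in CPM per kb of exon (right), with 1 bar per library of MRC+L, MRC and PBS. The Gabarapl1 portion is 38.9 to 45.6% of the sum in the 6 nanoparticle libraries and 18.3 to 22.5% in PBS, while the sum in PBS replicate 2, at 185, exceeds all others.

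Of the initiation genes, Wipi1 was lower in both nanoparticle groups, and Ulk1 and Becn1 were not called in any comparison. Wipi1 (chromosome 11, 109464157 to 109502793, minus strand), the phosphoinositide-binding protein, had 34.8, 35.0 and 33.6 CPM in MRC+L, 36.5, 42.8 and 42.1 CPM in MRC, and 70.5, 57.1 and 71.1 CPM in PBS. No pair of groups overlapped, and MRC+L was the lowest. Wipi1 was 1.92-fold lower in MRC+L than in PBS (log2 -0.94 ± 0.12 SE, edgeR adjusted p = 0.000160) and 1.64-fold lower in MRC than in PBS (-0.71 ± 0.12, edgeR adjusted p = 0.00109). Between MRC+L and MRC the log2 difference was -0.23 ± 0.09 (95% interval -0.41 to -0.05, edgeR adjusted p = 0.120).

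Ulk1 (chromosome 5, 110932354 to 110957963, minus strand), the initiating kinase, had 43.4, 46.7 and 45.7 CPM in MRC+L, 42.8, 52.8 and 41.3 CPM in MRC, and 48.9, 35.2 and 54.2 CPM in PBS. The nanoparticle libraries lay within the PBS range, with PBS replicate 2 the lowest of all. The log2 difference from PBS was -0.03 ± 0.16 in MRC+L (95% interval -0.39 to 0.33, edgeR adjusted p = 0.903) and -0.02 ± 0.16 in MRC (-0.38 to 0.34, edgeR adjusted p = 0.949). Between MRC+L and MRC it was -0.01 ± 0.09 (-0.19 to 0.18, edgeR adjusted p = 0.971). Without PBS replicate 2 the differences from PBS were -0.19 in MRC+L and -0.18 in MRC, with edgeR adjusted p-values of 0.138 and 0.160.

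Becn1 (chromosome 11, 101176778 to 101193112, minus strand), the scaffold of the VPS34 complex, had 67.5, 67.5 and 74.8 CPM in MRC+L, 60.7, 67.8 and 64.7 CPM in MRC, and 68.3, 77.2 and 58.3 CPM in PBS. The 3 groups overlapped. The log2 difference from PBS was 0.04 ± 0.12 in MRC+L (95% interval -0.22 to 0.31, edgeR adjusted p = 0.786) and -0.08 ± 0.12 in MRC (-0.34 to 0.19, edgeR adjusted p = 0.639). Between MRC+L and MRC it was 0.12 ± 0.07 (-0.03 to 0.27, edgeR adjusted p = 0.353). Of its 7065 exon bases, 3104 (43.9%) are shared with Cntd1 on the opposite strand. Cntd1 had 34 counts in all, and reads in the shared stretch went to neither gene, so the level of Becn1 is uncertain.

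The laser comparison asks what light added to the nanoparticles. None of the 10 members passed the threshold in MRC+L against MRC by edgeR, beside 5.05% of 12955 tested genes, 3.13% higher and 1.91% lower. DESeq2 and limma-voom, which called 5.89% and 7.29% of all genes, also called none of them. At an unadjusted p under 0.05 there were 3 (Optn, Nbr1, Wipi1), beside 21.0% of all tested genes, and these were also the 3 members whose ranges in the 2 groups did not overlap, beside 24.9% of all tested genes. Both counts are near those shares. Their differences had the same sign as those from PBS, with Optn and Nbr1 higher and Wipi1 lower in MRC+L. The median log2 difference of the members was 0.09, against -0.01 for all tested genes.

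Levels per kilobase of exon allow only a rough comparison of different genes. The length used joins all annotated exons of a gene, whether or not these cells use them. For Map1lc3b it is 7517 bases in a gene that runs from 122317100 to 122325499, so the order of genes depends on the annotation. Sqstm1 stood at 1134 ± 92.7 CPM per kb in MRC+L, 1042 ± 63.0 in MRC and 241 ± 58.2 in PBS (SD, n = 3). That placed it 17th in MRC+L, 19th in MRC and 137th in PBS among 11633 protein-coding genes tested. Gabarapl1 followed among the members in the nanoparticle groups, with 65.2 ± 3.38 in MRC+L and 61.2 ± 1.84 in MRC, against 26.8 ± 6.65 in PBS. In PBS, Nbr1 (27.5) and Gabarapl1 (26.8) were within each other's spread, whereas Nbr1 had 36.3 in MRC+L and 32.4 in MRC. Over the full exon length, the other members ranged from 4.94 (Map1lc3a) to 17.1 (Optn) in MRC+L, from 4.65 (Map1lc3a) to 14.7 (Optn) in MRC and from 4.85 (Map1lc3a) to 17.2 (Map1lc3b) in PBS. Optn stood above Map1lc3b in MRC+L, at 17.1 and 14.2, and next to it in MRC, at 14.7 and 14.5, while in PBS it was below, at 11.02 against 17.2. Wipi1 had 7.82 in MRC+L and 9.17 in MRC, against 15.01 in PBS. Reads in exon bases shared with another gene were not counted, and leaving those bases out of the length puts Becn1 at 17.7 in MRC+L, 16.3 in MRC and 17.1 in PBS, in place of 9.90, 9.11 and 9.61, which is next to Optn in MRC+L (17.5). It puts Gabarapl1 at 90.9 in MRC+L and 85.3 in MRC, against 37.3 in PBS, above Nbr1 in PBS too. Map1lc3a was the lowest of the 10 in each group on either length, and Ulk1 was next over the full length in MRC+L, MRC and PBS, at 6.98 in MRC+L, 7.03 in MRC and 7.11 in PBS.

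**Figure D4:**
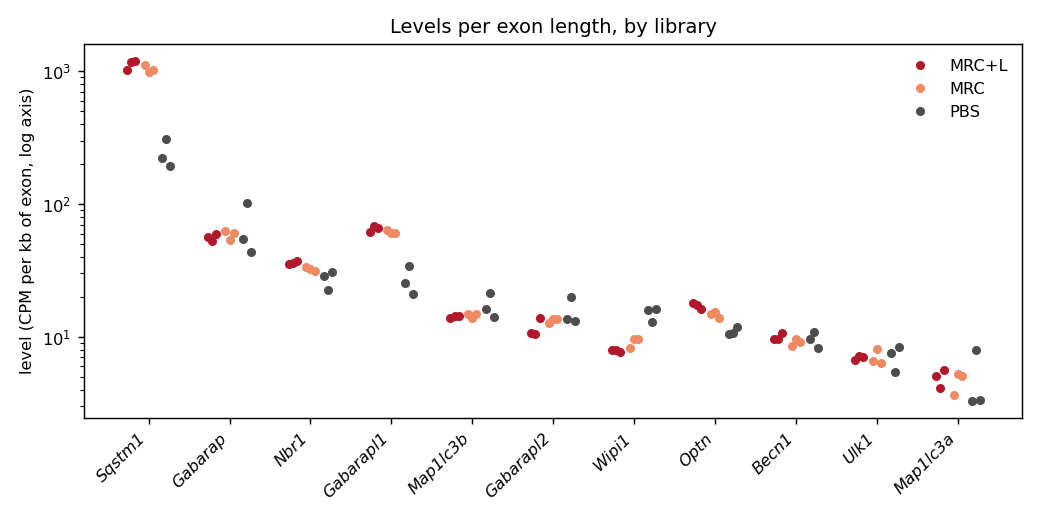
Level of the 10 members and Gabarap in CPM per kb of exon (logarithmic vertical axis), with 1 point for each of the 3 libraries of MRC+L, MRC and PBS. Sqstm1 averages 1134 in MRC+L, 1042 in MRC and 241 in PBS, and Map1lc3a is lowest, at 4.94, 4.65 and 4.85.

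The genes whose pattern over the 9 libraries lay closest to that of Sqstm1 were Hspa5, Ppp1r15a and Sat1, ranked among 11629 protein-coding genes by the root mean square difference of centred log2 CPM. Hspa5, an endoplasmic reticulum chaperone, differed from it by 0.0859 and had 13429 ± 531 CPM in MRC+L, 12792 ± 1166 in MRC and 2638 ± 594 in PBS. Ppp1r15a, a regulatory subunit of the phosphatase that acts on eIF2α, differed by 0.126 and had 267 ± 17.4, 215 ± 19.4 and 48.3 ± 11.4 CPM in the same groups. Sat1, a polyamine acetyltransferase, differed by 0.126 and had 305 ± 27.4, 310.0 ± 50.7 and 73.3 ± 24.4 CPM.

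A wider list of 70 further autophagy genes, of which 68 were tested, places the members in their pathway. Ccpg1, with at most 7 counts per library, and Prkaa2, with at most 1, were too low to test. The test called 22 higher and 8 lower in MRC+L against PBS, beside 21.8% higher and 24.5% lower of all tested genes. In MRC against PBS it called 20 higher and 8 lower, beside 17.8% and 19.8%. Calls in either direction covered 46.2% and 37.6% of all tested genes, near the shares of the list, so total counts do not set it apart. Of the calls in the list, 19 and 6 in MRC+L and 9 and 4 in MRC held whichever of the 9 libraries was left out. Without PBS replicate 2 the list had 26 higher and 11 lower in MRC+L against PBS, beside 27.4% and 28.3% of all genes. In MRC it then had 25 higher and 13 lower, beside 24.7% and 26.0%. The median log2 fold change of the list was 0.09 in MRC+L and 0.08 in MRC against PBS, against -0.03 for all tested genes.

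**Figure D5:**
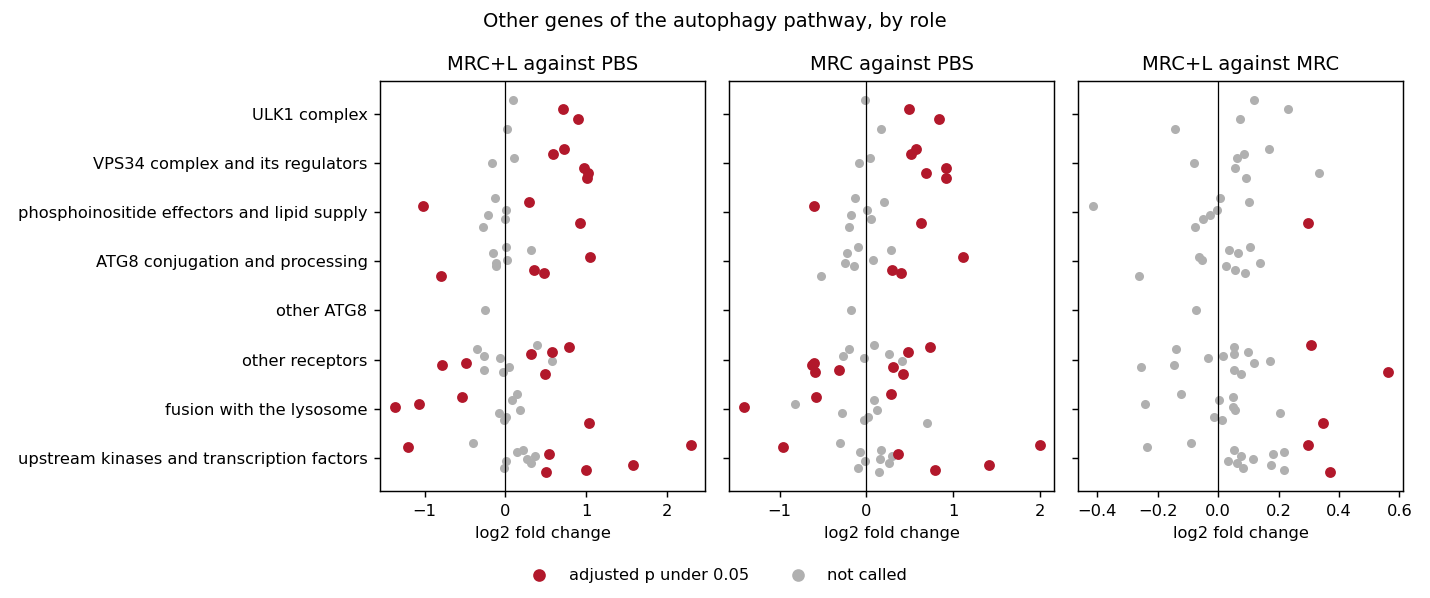
Log2 fold changes of the 68 tested genes of the wider list, grouped by role, in MRC+L against PBS, MRC against PBS and MRC+L against MRC (horizontal axes, each with its own scale), with called genes in red and the rest in grey. The group of the VPS34 complex and its regulators, without Becn1, has 5 of 7 genes called higher in both comparisons with PBS and none lower. Of all tested genes, 21.8% were called higher in MRC+L and 17.8% in MRC.

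The counts by role leave out the 10 members unless stated. They stand beside the shares of all tested genes given above for each comparison with PBS. In the ULK1 complex 2 of 4 genes, or 2 of 5 with Ulk1, rose in each comparison with PBS and none fell. Atg13, the adaptor of the kinase, had 105 ± 3.98 CPM in MRC+L and 100.2 ± 4.70 in MRC, against 56.2 ± 3.48 in PBS (1.87-fold and 1.78-fold, edgeR adjusted p = 5.30e-05 and 0.000117). Rb1cc1, the FIP200 scaffold, had 169 ± 9.54 CPM in MRC+L and 145 ± 17.5 in MRC, against 103 ± 26.0 in PBS (edgeR adjusted p = 0.00757 and 0.0481). The MRC call of Rb1cc1 was lost in 7 of 9 omissions of 1 library, with adjusted p-values up to 0.169. The VPS34 complex and its regulators had 5 of 7 genes, or 5 of 8 with Becn1, higher in each comparison and none lower. Nrbf2, a subunit of the complex, had 24.9 ± 0.916 CPM in MRC+L and 24.0 ± 1.10 in MRC, against 12.7 ± 0.614 in PBS (1.96-fold and 1.89-fold, edgeR adjusted p = 6.96e-05 and 0.000132). Uvrag, a Beclin 1 partner in endosome traffic, had 59.8 ± 2.90 CPM in MRC+L and 53.4 ± 4.62 in MRC, against 36.1 ± 3.29 in PBS (edgeR adjusted p = 0.000545 and 0.00301). Atg14, the partner that directs the complex to autophagy, had 31.8 ± 3.99 CPM in MRC+L and 25.3 ± 2.61 in MRC, against 15.7 ± 3.78 in PBS (edgeR adjusted p = 0.00154 and 0.0150). Without MRC replicate 2 the MRC call of Atg14 was lost (edgeR adjusted p = 0.0593). Ambra1, a Beclin 1 regulator, had 84.2 ± 8.92 CPM in MRC against 44.5 ± 13.3 in PBS (1.89-fold, edgeR adjusted p = 0.00439). Without PBS replicate 2 the Ambra1 difference was 1.62-fold. Rubcn, the remaining gene called in this group, was higher than in PBS by 0.59 on the log2 scale in MRC+L and 0.51 in MRC (edgeR adjusted p = 0.00630 and 0.0157). Its MRC call was lost without MRC replicate 1 or 2.

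Among phosphoinositide effectors and lipid supply genes, 2 of 8 rose and 1 fell in MRC+L, and 1 rose and 1 fell in MRC, and Wipi1 adds 1 that fell to each. Wdr45, which encodes a WIPI family protein as Wipi1 does, had 8.15 ± 1.89 CPM in MRC+L and 10.8 ± 0.607 in MRC, against 16.5 ± 3.20 in PBS. It was 2.03-fold lower in MRC+L (edgeR adjusted p = 0.00197) and 1.52-fold lower in MRC (0.0295), and the MRC call was lost without MRC replicate 1, 2 or 3 (0.102, 0.0709 and 0.0756). Wdr45b, another WIPI family gene, had 101 ± 4.83 CPM in MRC+L against 82.7 ± 2.37 in PBS (edgeR adjusted p = 0.0204), a call lost without PBS replicate 1 or MRC+L replicate 2 or 3. Atg2b, a lipid transfer protein, had 178 ± 5.78 CPM in MRC+L and 145 ± 17.5 in MRC, against 94.4 ± 32.6 in PBS (edgeR adjusted p = 0.00728 and 0.0479), and its MRC call was lost in 7 of 9 omissions. Of 10 conjugation genes, 3 rose in both groups, and 1 fell in MRC+L. Atg4c, an ATG8-processing protease, had 18.8 ± 1.84 CPM in MRC+L and 19.7 ± 0.778 in MRC, against 9.10 ± 1.49 in PBS (2.06-fold and 2.16-fold, edgeR adjusted p = 0.000334 and 0.000297). Atg12 and Atg16l1, parts of the ATG8-conjugating complex, were 1.40-fold and 1.27-fold higher in MRC+L than in PBS (edgeR adjusted p = 0.00450 and 0.0129). In MRC against PBS they were 1.32-fold and 1.23-fold higher (0.0146 and 0.0318). Those calls were lost without MRC replicate 1 for Atg12 (0.0692), without MRC+L replicate 3 for Atg16l1 in MRC+L (0.0607) and in 7 of 9 omissions for Atg16l1 in MRC. With the trend in gene length removed, neither Atg12 nor Atg16l1 was called in either comparison.

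Other receptors moved in both directions: 4 of 14 tested rose and 2 fell in MRC+L, and 4 rose and 4 fell in MRC, against PBS. Tollip, a ubiquitin-binding receptor, had 150.5 ± 4.56 CPM in MRC+L and 146 ± 6.82 in MRC, against 87.4 ± 13.5 in PBS (1.72-fold and 1.67-fold, edgeR adjusted p = 0.000624 and 0.00112). Tax1bp1, a receptor that shares ubiquitin cargo with p62 and NBR1, had 242.5 ± 7.39 CPM in MRC+L and 227 ± 16 in MRC, against 163 ± 4.19 in PBS (edgeR adjusted p = 0.000872 and 0.00311), and neither call was kept with the trend in gene length removed. Among mitochondrial receptors, Fundc1, Fkbp8, Bnip3 and Bnip3l were called lower in MRC than in PBS. Fundc1 and Fkbp8 were also called lower in MRC+L, and Bcl2l13 alone was called higher in both. The MRC+L call of Fundc1 was lost with the trend in gene length removed (edgeR adjusted p = 0.0563). The MRC call of Fkbp8 was lost without MRC replicate 1 (edgeR adjusted p = 0.0633). In MRC, Bnip3 and Bnip3l, added after their values were seen, differed from PBS by -0.59 and -0.32 on the log2 scale (edgeR adjusted p = 0.0224 and 0.0397). Those calls held in 6 and 2 of 9 omissions of 1 library. Fkbp8 had 117 ± 9.14 CPM in MRC+L against 202 ± 54.2 in PBS (edgeR adjusted p = 0.00407). Without PBS replicate 2 that log2 difference was -0.54, in place of -0.78. Fundc1 had 18.0 ± 2.32 CPM in MRC against 27.5 ± 0.674 in PBS (edgeR adjusted p = 0.00320). Bcl2l13, named after its values were seen, was higher than in PBS by 0.50 on the log2 scale in MRC+L and by 0.42 in MRC (edgeR adjusted p = 0.0109 and 0.0271), and its MRC call was lost in 4 of 9 omissions. Genes of fusion with the lysosome showed 1 of 10 higher and 3 lower in MRC+L, and 1 higher and 2 lower in MRC. Tecpr1, a tethering factor, had 15.6 ± 1.33 CPM in MRC+L and 15.1 ± 3.21 in MRC, against 40.3 ± 0.844 in PBS (2.58-fold and 2.66-fold lower, edgeR adjusted p = 8.44e-05 and 9.66e-05). Vps41, a subunit of the HOPS tether, had 35.2 ± 2.37 CPM in MRC+L and 34.2 ± 2.82 in MRC, against 51.2 ± 3.10 in PBS (edgeR adjusted p = 0.00273 and 0.00216). Epg5, another tether, had 76.3 ± 2.72 CPM in MRC+L against 37.1 ± 16.4 in PBS (edgeR adjusted p = 0.0160). Its log2 difference without PBS replicate 2 was 0.72, in place of 1.04. The SNARE gene Ykt6 had 90.9 ± 4.45 CPM in MRC against 75.0 ± 6.21 in PBS (edgeR adjusted p = 0.0468), a call lost in 8 of 9 omissions.

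Of 14 upstream kinases and transcription factors tested, 5 rose and 1 fell in MRC+L, and 4 rose and 1 fell in MRC, against PBS. Tfeb, the transcription factor best known for driving lysosome and autophagy genes, had 7.70 ± 0.886 CPM in MRC+L and 9.08 ± 0.990 in MRC, against 17.7 ± 4.59 in PBS. It was 2.30-fold lower in MRC+L and 1.95-fold lower in MRC (edgeR adjusted p = 0.00105 and 0.00428). Without PBS replicate 2 the log2 differences of Tfeb were -1.04 and -0.80, in place of -1.20 and -0.96. Mitf, of the same family, had 22.1 ± 1.44 CPM in MRC+L and 19.7 ± 2.16 in MRC, against 7.42 ± 0.974 in PBS (2.98-fold and 2.66-fold higher, edgeR adjusted p = 2.28e-05 and 6.10e-05). Trp53inp1, a stress protein that binds ATG8 proteins, had 49.4 ± 3.16 CPM in MRC+L and 40.2 ± 2.38 in MRC, against 10.1 ± 4.64 in PBS (4.89-fold and 3.98-fold, edgeR adjusted p = 0.000148 and 0.000430). Without PBS replicate 2 these differences were 3.93-fold and 3.19-fold.

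Of the 68 genes of the wider list, 6 were called higher and none lower in MRC+L against MRC. Beside them, 3.13% of all 12955 tested genes were called higher and 1.91% lower. The median log2 difference of the list was 0.06. Bnip3, a mitochondrial receptor, had 129 ± 23.4 CPM in MRC+L and 87.8 ± 15.7 in MRC, and PBS was at 132 ± 17.4. It was 1.48-fold higher in MRC+L than in MRC (edgeR adjusted p = 0.00395), a call that held in all 6 omissions of 1 library and was lost with DESeq2. Ddit4, an inhibitor of mTORC1 signalling, had 89.0 ± 9.80 CPM in MRC+L and 69.2 ± 2.72 in MRC (1.29-fold, edgeR adjusted p = 0.00756), and lost its call without MRC+L replicate 1 (0.0608). The calls of Atg2b, Wdfy3, Trp53inp1 and Epg5 (edgeR adjusted p = 0.0236, 0.0325, 0.0353 and 0.0354) held in 3, 2, 2 and 1 of 6 omissions. With all 9 libraries in the edgeR fit, where the larger PBS spread enters, 0 of all 13439 genes were called, these 6 among them. At an unadjusted p under 0.05 that fit had 4 of the 68, beside 4.26% of all genes.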

How the data were processed

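Gene RNA levels of 4T1 cells were measured in 9 TruSeq RNA libraries made from Trizol extracts, per the labels' protocols. The deposited tables hold raw read-pair counts and exon lengths by gene, which featureCounts 2.0.1 produced on GRCm39 with Ensembl 104, as the headers record. Strand was not used and multi-mapping reads were dropped, so overlapping genes and near-identical copies are uncertain. The aligner is not given in the sources used here.

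Symbols were matched by gene ID to GENCODE M21 (52083 IDs, 94.0%). Genes were kept by the edgeR filter (minimum count 10, minimum total 15). The quasi-likelihood test of edgeR 4.0.16 (R 4.3.3, TMM factors, Benjamini-Hochberg adjustment over all tested genes, threshold 0.05) was fitted to all 9 libraries for comparisons with PBS and to 6 libraries for MRC+L against MRC. Alternatives used DESeq2 1.42.0 and limma 3.58.1, and scripts were tested on simulated data. Counts were divided by TMM-scaled totals, and by exon length where levels of genes are compared. All 10 members, and per role and comparison up to 3 called genes of the wider list with the smallest adjusted p, are named. Bcl2l13, Bnip3l and Rubcn, and Bnip3 in MRC against PBS, were named outside this rule. Members and lists were chosen with earlier results of these data known. Libraries that share a replicate number were treated as unpaired.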

Additional observations from a re-analysis of the deposited data

How the results depend on the processing

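In both comparisons with PBS, the calls of Sqstm1, Gabarapl1, Optn and Wipi1 held in all 16 alternatives run. Counts of member calls moved as follows. In MRC+L against PBS, limma-voom called 3 lower and the fit with no filter on low counts 2 lower, and leaving out 1 library gave 3 to 5 higher and 1 to 3 lower. In MRC against PBS, limma-voom called 5 higher and 2 lower, and leaving out 1 library gave 3 to 4 higher and 1 to 2 lower. limma-voom called 73.3% and 65.9% of all genes in these comparisons. In MRC+L against MRC leaving out 1 library gave 0 to 1 higher and 0 lower. Nbr1 in MRC+L against PBS was not called with the 6 libraries of the comparison (adjusted p = 0.0591).

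For the wider list, limma-voom called 31 higher and 17 lower in MRC+L and 28 higher and 18 lower in MRC against PBS, beside 36.2% and 37.1%, and 33.0% and 32.9%, of all genes. The 6-library fit called 13 higher in MRC, beside 12.9% of all genes, and the 9-library fit called 0 of the list and 0 of all 13439 genes in MRC+L against MRC. Leaving out 1 library gave 19 to 26 higher and 6 to 11 lower in MRC+L against PBS, 10 to 25 and 5 to 13 in MRC against PBS, and 2 to 7 and 0 in MRC+L against MRC. The lowest counts in MRC against PBS came without MRC replicate 2.

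Signs turned for members near 0: in MRC against PBS, Map1lc3a had 0.48 with limma-voom (adjusted p = 0.0196) and 0.25 with the length trend removed, and Ulk1 had 0.012 with no filter. In MRC+L against PBS Becn1 had -0.11 with the length trend removed, and in MRC+L against MRC Ulk1 had 0.040 with limma-voom. Leaving out 1 library moved Map1lc3a between -0.20 and 0.59 (MRC+L against PBS), -0.28 and 0.50 (MRC against PBS) and -0.051 and 0.19 (MRC+L against MRC), Ulk1 between -0.19 and 0.10, -0.18 and 0.11, and -0.075 and 0.11 in the same order, and Becn1 between -0.059 and 0.14 and between -0.18 and 0.018 in the comparisons with PBS. Leaving out 1 library moved the log2 ratio of the summed ATG8 level between 0.026 and 0.54 in MRC+L against PBS, 0.033 and 0.55 in MRC against PBS, and -0.041 and 0.015 in MRC+L against MRC. The last was -0.0073, and 0.0065 with shared exon bases left out of the lengths, a setting added after seeing the data. The causes were not tested.

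Same-numbered libraries had correlations of their deviations from the group means between -0.185 and 0.0385, which gave no sign of pairing. Such correlations cannot exclude a culture or batch shared by libraries of the same number. With the replicate block, 4 members were called higher and 1 lower in MRC+L against PBS, 3 and 1 in MRC against PBS, and 0 in MRC+L against MRC, and the wider list had 20 higher and 8 lower, 15 and 7, and 8 and 0 in the same order. Depth limits Map1lc3a most, with 63 to 160 counts per PBS library.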
